A study of Homo sapiens with 8 samples.

Results

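TIB153 cells grown with PKF118-310 were compared with TIB153 control cells across all genes. TIB153 is labelled a human T-ALL line (T-cell acute lymphoblastic leukaemia, a malignancy of immature T cells) and, like the other line of the series, CUTLL1, was not transfected. Both were kept in RPMI medium with 10% FBS. PKF118-310 is a small molecule sold as an inhibitor of the binding of β-catenin to TCF. Per the study's methods it was applied at 1 µM for 24 h. The study describes the control cells as given placebo, with no vehicle named. In the study's viability assay, TIB153 cells given this dose for 24 h gave a lower signal than control cells. The part of cell loss or dying cells in the values below was not tested. The comparison used 4 of the 8 lane files of the series, the 2 lanes of the control and of the treated library, and took in 13032 of the 57189 genes counted. The study asked which genes β-catenin controls in human T-ALL cells. The genes taken in were those that passed a filter on low counts and had at least 10 reads over both TIB153 libraries.

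In canonical Wnt signaling, β-catenin that escapes its destruction complex enters the nucleus and binds TCF/LEF factors, which switch target genes from repression to activation. TCF7 and LEF1 are such factors and serve early T-cell development. T-ALL cells are arrested thymocytes, so they keep genes of T-cell receptor assembly and signaling active, often together with NOTCH1 and MYC.

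The control library held 7792377 reads and the treated one 8140391 reads, with 3 reads in a library equal to 0.391 and 0.358 CPM (read counts scaled to a common library total by TMM). The lanes of each library were the same library sequenced again and differed by no more than sampling noise (chi-square test of the counts, limited to genes of 10 or more reads, p = 0.0845 and p = 0.786). They were summed, so n = 1 library a side. No p-value for the treatment can be had. Every interval below is a 95% exact binomial (Clopper-Pearson) interval that covers counting error only, since 1 library a side holds no variation between cultures or libraries. PCR reads without molecular identifiers are not independent molecules, so an interval can be too narrow even for counting error. Values are log2 ratios of scaled CPM, treated over control, with 0.5 reads added to each side. A gene was called higher or lower where the ratio was at least 2-fold and the interval excluded no change.

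The T-lineage label was borne out by its defining markers. All 12 fixed T-lineage markers had over 10 reads in each library, with LCK, the proximal kinase of the T-cell receptor, at 6691 reads in control and 7826 in treated cells and CD3E at 3868 and 4134. Their summed level was 2788 CPM in control and 2622 CPM in treated cells. Of 8 myeloid and 7 erythroid or megakaryocyte markers none had over 10 reads in each library, and MPO, CSF1R and HBA1 had none at all. The B-cell gene CD79A was present, at 608 and 875 reads, beside 16 and 30 reads of EBF1, whereas MS4A1 and CD22 had no read in either library. Of the fibroblast and epithelial markers, COL1A1 had 38 and 33 reads and the rest 4 or fewer. In such bulk samples fewer cells of a type and less RNA per cell cannot be told apart.

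More genes stood higher than lower in treated TIB153 cells. Of the 13032 measured genes, 727 (5.58%) were called higher and 282 (2.16%) lower, around a median log2 ratio of −0.01. With a 1.5-fold limit, 1513 genes (11.6%) were higher and 1303 (10.0%) lower. The excess of higher genes lay among weakly expressed genes. Among the 8358 genes that reached 20 CPM in a TIB153 library, 157 were higher and 125 lower. Among the 2746 genes that reached 100 CPM, 24 were higher and 33 were lower.

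**Figure D1:**
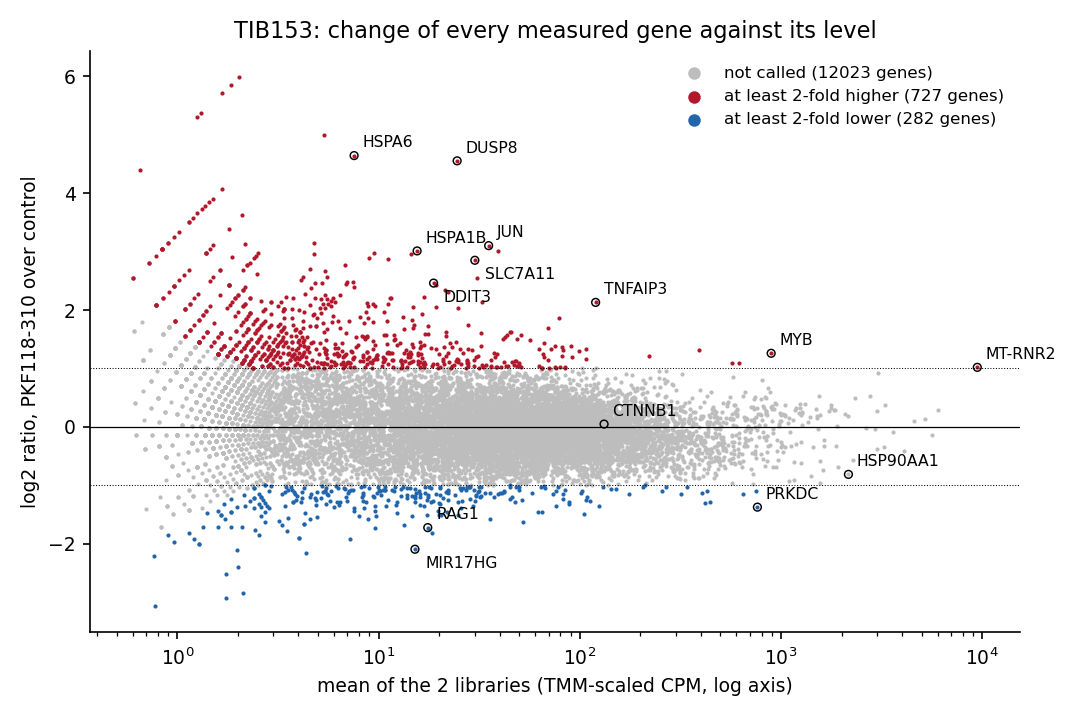
Each point is a measured gene, with its mean TMM-scaled CPM over the control and the treated library on a log axis (x) and its log2 ratio of treated over control (y). Red points (727) and blue points (282) are the genes called at 2-fold, most of them below 20 CPM, and circled genes are named in the text.

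A further pair of columns allowed a look at whether these changes repeat. The study's comparison table of TIB153 holds raw counts in the columns con1, con2, PKF1 and PKF2 for 4792 genes, 4783 of which were matched to the lane files. After scaling, con2 and PKF2 lay within 10% of the summed lanes for 95.3% and 95% of 4417 well covered genes, so they hold the lane libraries again in a different count. For 79 of 4684 listed genes with 50 or more reads, the 2 counts of the same library differed over 1.5-fold. For con1 and PKF1 the shares were 77.9% and 78.4%. Over 4598 genes with at least 20 reads in each column, the 2 control columns differed with 2.30 times the variance that counting gives and the 2 treated columns with 2.28 times. The log2 ratio of PKF1 over con1, in contrast, differed from that of PKF2 over con2 with 0.982 times the counting variance. The differences between columns were thus largely shared by the control and the treated side, gene by gene, and their source was not tested. These genes had also passed the study's own test on the same columns, which can favour ratios that agree. The value of 0.982 is therefore no independent measure of how closely the change repeats. The study describes such pairs of columns as separate cultures for its mouse lines, and for TIB153 it does not say whether they were.

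Within that limit the called genes that were listed kept their direction. Of the 727 genes called higher, 399 were listed in the table. All 399 were above 0 in con1 and PKF1, with a median log2 ratio of 1.40 there and 1.39 in the lanes, and 335 were at least 2-fold higher in that pair as well. Of the 282 genes called lower, 193 were listed. All 193 were below 0, and 138 were at least 2-fold lower in con1 and PKF1. Keeping the sign did not set the called genes apart, since 4735 of all 4739 listed and measured genes kept it. Of all these, 13.5% differed at least 2-fold in either direction in con1 and PKF1. The table lists only genes that passed the study's own test on all 4 columns, so a listed gene had to agree in part, and these shares are no independent test. The 417 called genes that were not listed had a median of 40 reads over both libraries, and 394 of them had under 100, against a median of 212 reads for the 592 listed ones.

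**Figure D2:**
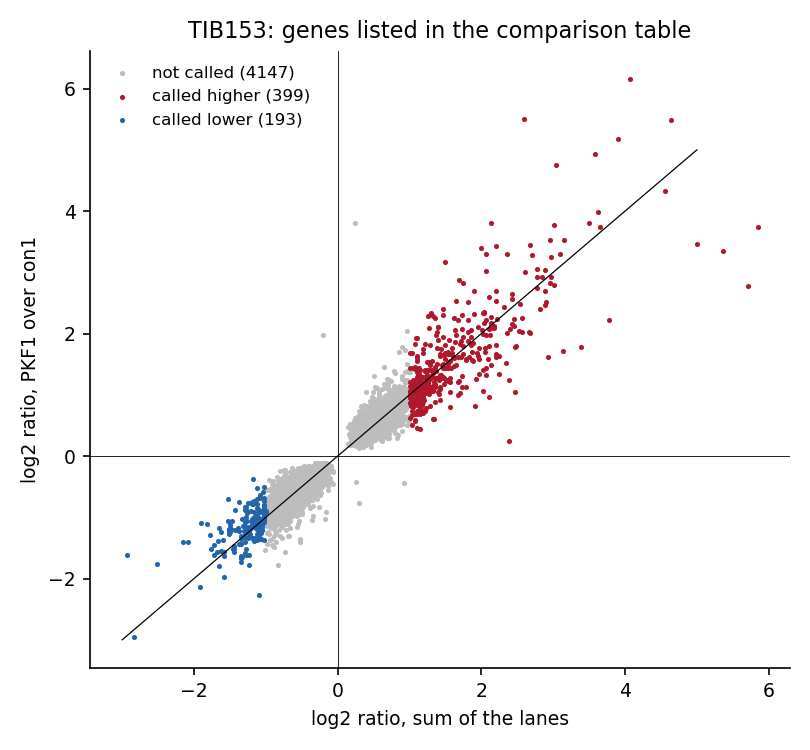
Each point is a listed gene, with its log2 ratio in the summed lanes (x) and in the columns con1 and PKF1 (y), and the diagonal marks equal ratios. The 399 genes called higher all lie above 0 on the y axis and the 193 called lower all lie below it. Of all 4739 listed and measured genes, 4735 have the same sign on both axes.

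DUSP8 stood highest among the genes that reached 20 CPM. It encodes a phosphatase that inactivates the stress kinases JNK and p38 and lies at chr11:1554044-1571920 on the minus strand (hg38, GENCODE v29). It had 15 reads in control and 395 in treated cells, a log2 ratio of 4.55 (3.85 to 5.44), and 18 and 396 reads in con1 and PKF1. JUN, the AP-1 subunit that JNK phosphorylates, at chr1:58780788-58784327, went from 56 to 529 reads, a ratio of 3.10 (2.72 to 3.54). Both stood high in each pair of columns, and JUN had 51 and 547 reads in con1 and PKF1. GAB2, a docking protein for growth factor and cytokine receptors, had 66 and 583 reads (3.01, interval 2.65 to 3.41).

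Of the other 12 genes among the 15 highest, some repeated less closely or differed from CUTLL1. VEGFA, an angiogenic growth factor, had 54 and 301 reads, with a ratio of 2.34 in the lanes and 1.52 in con1 and PKF1. CTTN, which encodes the actin regulator cortactin, had 57 and 310 reads (2.31, interval 1.91 to 2.75). GZMA, a granzyme of cytotoxic lymphocytes, had 45 and 231 reads (2.22, interval 1.77 to 2.73). CTTN and GZMA showed no such difference in CUTLL1, where their log2 ratios were −0.53 and 0.07. The remaining genes of the 15 were HSPA1B, C1QTNF6, SLC7A11, PLCL1, DDIT3, CREBRF, SKIL, TNFAIP3 and BHLHE40, with ratios between 2.05 and 3.01. All 15 were at least 2-fold higher in con1 and PKF1, and 10 were called higher in CUTLL1.

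The lowest ratios were smaller in size than the highest. MIR17HG, the host transcript of the miR-17-92 cluster, was the lowest of the genes that reached 20 CPM, at 189 reads in control and 48 in treated cells, a log2 ratio of −2.09 (−2.59 to −1.64). It had 123 and 50 reads in con1 and PKF1, a ratio of −1.40. PYCR3, an enzyme of proline synthesis, had 222 and 68 reads (−1.82, interval −2.25 to −1.43), and RAG1, which cuts antigen receptor genes, 207 and 68 (−1.72, interval −2.15 to −1.33). UNC13B, a regulator of vesicle priming, had 604 and 214 reads (−1.62, interval −1.85 to −1.39), POLA1, the catalytic subunit of the DNA polymerase that primes replication, had 731 and 292 (−1.45, interval −1.65 to −1.25), and VCL, the focal adhesion protein vinculin, 233 and 89 (−1.51, interval −1.88 to −1.16). In con1 and PKF1, 13 of the 15 lowest genes lay closer to 0 than in the lanes and 5 lay outside the lane interval, among them STOM, a membrane scaffold gene, at −1.53 in the lanes and −0.70 in that pair. The remaining lowest genes were GALNT18, FOCAD, XYLT1, RABL3, PIGW, RAP1GAP2, CORO2A and OPN3, between −1.68 and −1.43. In CUTLL1, 14 of the 15 lowest genes lay below 0 and 3 were called lower.

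**Figure D3:**
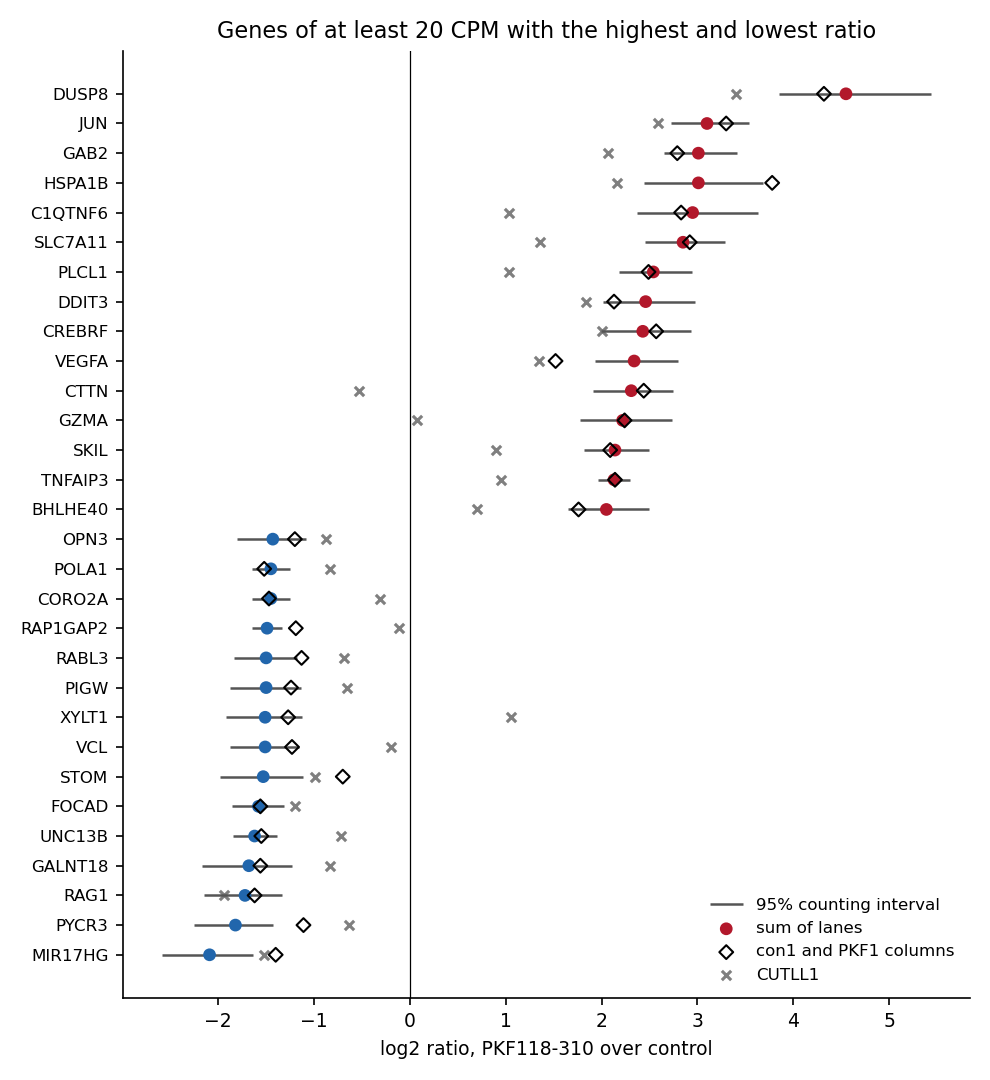
Log2 ratio (x) of the 15 highest and 15 lowest called genes that reached 20 CPM. Filled circles are the summed lanes with their 95% counting interval, open diamonds the columns con1 and PKF1, and crosses CUTLL1. Every diamond lies on the same side of 0 as its circle, while CTTN and XYLT1 have their cross on the other side.

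The mature miRNAs of the cluster are shown because their host had the lowest ratio of the genes that reached 20 CPM. They lie inside MIR17HG at chr13:91347820-91354579. The sequences are RefSeq's (GRCh38.p14), with the seed, bases 2 to 8, in capitals.
miR-17-5p: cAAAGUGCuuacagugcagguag
miR-20a-5p: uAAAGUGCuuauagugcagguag
miR-18a-5p: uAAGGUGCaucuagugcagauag
miR-19a-3p: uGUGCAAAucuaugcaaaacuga
miR-19b-3p: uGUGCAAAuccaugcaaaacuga
miR-92a-3p: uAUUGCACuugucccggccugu
miR-17-5p and miR-20a-5p share 1 seed, miR-19a-3p and miR-19b-3p another, and miR-18a-5p and miR-92a-3p have their own. The libraries measured the polyadenylated host transcript and not these miRNAs.

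Genes of the integrated stress response were the list with the highest median. In this pathway kinases that sense stress phosphorylate the initiation factor eIF2, translation of ATF4 rises, and ATF4 and its partner CHOP switch on genes of amino acid supply and of recovery. Of 17 measured members 11 were called higher and none lower, with a median of 1.23 beside −0.01 over all genes. For this and the lists below, the shares over all measured genes were 5.58% called higher and 2.16% called lower. DDIT3, which encodes CHOP, had 44 reads in control and 266 in treated cells (2.46, interval 2.01 to 2.97). Another gene covers 31.6% of its exonic bases on the other strand, and whether reads were counted by strand is not stated.

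The feedback and target genes of the pathway stood with DDIT3. ATF3, a repressor induced by stress, had 74 and 333 reads (2.04, interval 1.68 to 2.43), and PPP1R15A, the phosphatase subunit that reverses eIF2 phosphorylation, 259 and 1035 (1.87, interval 1.68 to 2.08). VLDLR, a lipoprotein receptor, had 249 and 885 reads (1.70) and CHAC1, which degrades glutathione, 54 and 191 (1.69 in the lanes, 2.88 in con1 and PKF1). The other members called higher were CEBPB (1.58), GPT2 (1.5), TRIB3 (1.48), STC2 (1.23), SESN2 (1.1) and ATF5 (1.03). ATF4 itself was abundant, with 4674 and 7294 reads, and its ratio of 0.52 (0.46 to 0.57) did not reach 1.5-fold. EIF2AK4, which encodes the amino acid sensing kinase GCN2, lay below 0, at 777 and 490 reads (−0.79).

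Amino acid transport and synthesis genes showed changes in both directions. SLC7A11, the cystine importer, had 56 and 443 reads (2.85, interval 2.45 to 3.29), and its partner SLC3A2, the heavy chain shared by several transporters, 1733 and 4678 (1.31, interval 1.23 to 1.39). SLC6A9, a glycine transporter, was higher as well (16 and 98 reads, 2.45) and SLC36A4, a proton-coupled transporter, lower (284 and 153 reads, −1.02), so 3 of 13 transporters were higher and 1 lower. Among 16 genes of serine, asparagine, proline and arginine synthesis, ASS1 (98 and 360 reads, 1.75) and ASNS were higher and PYCR3 and ASL (49 and 19 reads, −1.47) lower. ASNS, asparagine synthetase, had only 2 and 28 reads in the lane files (3.39, interval 1.69 to 6.80), where another gene covers 44.6% of its exonic bases on the same strand. The comparison table counted 158 and 679 reads of it in the same libraries, and 187 and 693 in con1 and PKF1 (1.78), so its level depends on the counting and its direction did not. MTHFD2, a mitochondrial folate enzyme, had 3150 and 6234 reads (0.86). The 20 cytosolic tRNA synthetases had a median of 0.06, with CARS at 0.89, AARS at 0.68 and SARS at 0.67 as the highest and FARSB at −0.91 and FARSA at −0.74 as the lowest.

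Short motifs in the promoters of these genes are shown as a description. For the 250 bases before the start that RefSeq gives each gene, its promoter table matched 9420 of the measured genes (72.3%). The core TGATGNAA of the ATF4 and CHOP response element, searched on both strands, was present in 1.24% of these promoters, 2.23% of the 404 of genes called higher, 2.11% of the 190 of genes called lower and 3.19% of all 27305 promoters of the table. The cAMP response element TGACGTCA, which ATF/CREB and JUN dimers can bind, was present in 3.04%, 3.47%, 2.11% and 1.77% of the same groups. The AP-1 site TGANTCA was present in 3.52%, 6.44%, 3.68% and 6.6%. Its share in genes called higher was thus above that of the measured genes, from which they come, and close to that of the whole table. The lines below give 30-base windows on the gene's strand with the match in capitals. DUSP8 and SKIL, a SMAD corepressor gene (92 and 445 reads, 2.14), were added after their values were seen.
ATF3, chr1:212565205-212565234: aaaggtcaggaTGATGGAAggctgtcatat
CHAC1, chr15:40953251-40953280: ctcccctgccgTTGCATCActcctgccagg
PPP1R15A, chr19:48872352-48872381: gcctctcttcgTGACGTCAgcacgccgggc
DUSP8, chr11:1572371-1572400: ccgggctccgcTGACGTCAcctgcccccga
DUSP8, chr11:1572327-1572356: ttggctgcaggTGACGTCAggggctttttt
SKIL, chr3:170357650-170357679: cgaggactcggTGACGTCAgagggctgtgt
DDIT3, chr12:57520735-57520764: gcgcgcgcaTGACTCAcccacctcctccgt
ATF5, chr19:49928707-49928736: ggagagtgctgTGACTCAtgctggactcta
The AP-1 letters also occurred before EIF2AK4, at −0.79. RefSeq's starts differ from those of GENCODE v29. By the latter the windows of CHAC1, DDIT3 and ATF5 lie inside the gene, that of SKIL touches its start, and those of DUSP8 lie 451 and 407 bases before it. A match is neither a binding site nor a cause.

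Of 11 measured HSP70 genes 2 were called higher and none lower, with a median of −0.24. HSPA6, a strictly stress-induced HSP70, had 4 reads in control and 122 in treated cells (4.64, interval 3.41 to 6.70), and 3 and 169 in con1 and PKF1. HSPA1B, a major inducible HSP70, had 26 and 232 reads (3.01, interval 2.44 to 3.68). It shares 36.5% of its exonic bases with a neighbouring gene, and its near-identical copy HSPA1A was counted with only 1 and 11 reads, so reads may be divided between the copies. The other 9 measured HSP70 genes lay between −0.86 and 0.29, and 3 of them were at least 1.5-fold lower. HSPA5, the chaperone of the endoplasmic reticulum, had 3250 and 2044 reads (−0.79).

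In the list of HSP90, HSP60 and small heat shock proteins, 14 of 15 members were below 0 and 9 at least 1.5-fold lower, with a median of −0.65. HSP90AA1, the inducible cytosolic HSP90, went from 2750 to 1573 CPM, the largest loss of any gene in scaled CPM, and HSPD1, the mitochondrial HSP60, from 1514 to 807 CPM. FKBP5, an HSP90 cochaperone of steroid receptors, was the 1 member called lower at 2-fold, with 840 and 360 reads (−1.35, interval −1.53 to −1.17). All 8 subunits of the TRiC chaperonin, which folds actin and tubulin, lay between −0.67 and −0.13, the lowest being TCP1 at 7811 and 5344 reads. Of 17 HSP40 genes and nucleotide exchange factors, DNAJB2 (273 and 809 reads, 1.44), DNAJB9 (100 and 240, 1.13) and DNAJB4 (44 and 104, 1.11) were higher and none was lower. DNAJB1 had 1526 and 2867 reads (0.78).

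The heat shock element core GAANNTTC was found in 3.91% of matched promoters of measured genes, in 6.68% of those of genes called higher and in 1.58% of those of genes called lower, beside 5.85% of all promoters of the table. Of 40 matched heat shock genes 8 held it. The windows below set the higher pair beside members that held the same letters and were not higher.
HSPA6, chr1:161524349-161524378: ccgatctgcccGAACCTTCtcccggggtca
HSPA6, chr1:161524460-161524489: gaaaggttcgcGAAAGTTCgcggcggcggg
HSPA1B, chr6:31827622-31827651: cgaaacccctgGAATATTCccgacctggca
HSPA8, chr11:123062168-123062197: ggccccttctgGAAGGTTCtaagatagggt
DNAJA1, chr9:33025064-33025093: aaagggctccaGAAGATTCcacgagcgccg
HSPB1, chr7:76302480-76302509: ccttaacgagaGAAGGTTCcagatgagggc
HSPA8, the constitutive cytosolic HSP70, had a ratio of −0.33, and its window lies inside the gene by GENCODE v29. DNAJA1 had a ratio of −0.58 and HSPB1 one of 0.18.

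Oxidative stress, MAP kinase and immediate early genes gave smaller groups. OSGIN1, an NRF2 target, had 20 and 164 reads (2.88) and NQO1, a quinone reductase, 48 and 149 (1.5). With SLC7A11 they were the 3 of 20 NRF2 targets called higher, and HMOX1 had 1 and 0 reads. Of 12 DUSP phosphatases 4 were higher: DUSP8, DUSP4 (1 and 13 reads, interval 0.84 to 8.98), DUSP10 (29 and 110 reads, 1.78) and DUSP16 (99 and 299, 1.46). Among AP-1 subunits FOS followed JUN with 10 and 31 reads (1.46, interval 0.44 to 2.70), and JUNB, at 247 and 260 reads, had a ratio of −0.05. NR4A3 (2 and 11 reads, interval 0.14 to 5.55), RHOB (4 and 17), EGR1 (19 and 48) and KLF6 (183 and 409, 1.03) were the immediate early genes called higher. KLF2, a factor of T-cell quiescence and migration, lay at −0.97 with 382 and 212 reads. None of the 20 members of the unfolded protein response list was called at 2-fold, and their median was −0.28. DDIT3, DNAJB9 and HSPA5 were counted in other lists and were not among these 20.

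Clock genes had the list median next in order, 0.82. The circadian clock is a feedback loop in which CLOCK and BMAL1 drive PER, CRY and REV-ERB genes that repress them. Of 15 members 5 were called higher and none lower. BHLHE40, a repressor of CLOCK targets, had 57 and 260 reads (2.05, interval 1.65 to 2.5), TEF, a PAR bZIP factor, 49 and 191 (1.83), and its relative HLF 30 and 96 (1.54). NR1D2, which encodes REV-ERBβ, had 319 and 909 reads (1.38, interval 1.2 to 1.57), and PER2 had 175 and 456 (1.25). NR1D1, DBP, RORA and CRY2 lay between 0.59 and 0.93.

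Among NF-κB genes 3 of 18 were called higher and none lower, beside 5.58% and 2.16% of all measured genes. TNFAIP3, which encodes the NF-κB inhibitor A20, had 343 and 1634 reads (2.13, interval 1.96 to 2.30) and 341 and 1616 in con1 and PKF1 (2.14), the smallest shift between the pairs among the 15 highest genes. CD69 (31 and 81 reads, 1.25) and TRAF1 (34 and 80, 1.1) were the other 2. STAT5A, a transducer of cytokine receptors, had 384 and 1094 reads (1.38, interval 1.22 to 1.56) and was the 1 of 16 JAK-STAT genes called. A count of 1 in 16 is near the share called higher over all genes. SMAD7, an inhibitor of TGF-β signaling, had 7 and 72 (3.15, interval 2.12 to 4.60), and with SKIL it made up the 2 of 17 TGF-β genes called. PIK3IP1, an inhibitor of PI3K, went from 14 to 71 reads (2.18). FOXO1, a factor that AKT keeps out of the nucleus, was lower, with 110 and 57 reads (−1.07).

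CDKN1A, which encodes the cell cycle inhibitor p21, had 12 and 40 reads (1.57, interval 0.65 to 2.68), and BBC3, the apoptosis inducer PUMA, had 43 and 96 (1.02). Both were called higher. Of 14 BCL2 family genes 2 were called higher and none lower, BBC3 and BCL2L2, a survival gene with 8 and 24 reads (1.40). Over all measured genes 5.58% were called higher. XPC, a repair factor, lay at −0.90 in the lanes and −0.41 in con1 and PKF1. None of 15 caspase and death receptor genes was called at 2-fold.

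T-ALL factors changed unequally. MYB, a leukaemia oncogene of immature T cells at chr6:135181315-135219173, went from 4041 to 10553 reads, a ratio of 1.26 (1.21 to 1.31) in the lanes, 1.28 in con1 and PKF1 and 0.43 in CUTLL1. It gained 734 CPM, the largest gain of a nuclear gene after EEF1A1 and EEF2. SOX4, at 9707 and 15238 reads, had a ratio of 0.53, and ID2, an inhibitor of E proteins, 21 and 63 reads (1.44). BCL11B, at 1524 and 946 reads (−0.81), and TAL1, at 1686 and 1086 (−0.76), were lower by less than 2-fold. MYC had 2495 and 2356 reads (−0.21), while MXD1, a repressive partner of MAX, was called higher (53 and 157 reads, 1.43) and MYCL lower (84 and 45, −1.02).

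Genes that assemble the antigen receptor lay mostly below 0. In V(D)J recombination RAG1 and RAG2 cut the receptor loci and the end-joining proteins rejoin them. Of 9 measured members 2 were called lower and none higher, 5 were at least 1.5-fold lower, and the median was −0.59. PRKDC, the catalytic subunit of DNA-dependent protein kinase, had 8442 reads in control and 3571 in treated cells (−1.37, interval −1.42 to −1.31), and 8062 and 3186 in con1 and PKF1. XRCC5, the Ku80 subunit that recruits it, had 7061 and 4418 (−0.80). RAG2 had 86 and 60 reads (−0.64) and DNTT, which adds untemplated bases, 450 and 327 (−0.59). No member of the CD3, coreceptor and pre-TCR alpha list was called at 2-fold. CD3G had 1217 and 746 reads (−0.83) and CD28, the costimulatory receptor, 1807 and 1204 (−0.71), whereas CD3D had 2539 and 3318 (0.26).

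Signaling below the receptor differed for single genes. SYK, a kinase of immature lymphocyte receptors, was lower, with 879 and 457 reads (−1.07, interval −1.24 to −0.90). Of 18 calcium genes 4 were lower and none higher: ITPR2, an intracellular calcium release channel (958 and 426 reads, −1.29), ORAI2, a store-operated channel (873 and 430, −1.15), and the calcineurin catalytic subunits PPP3CA (179 and 89, −1.13) and PPP3CB (443 and 224, −1.11). CD47, an inhibitor of phagocytosis, was lower at 4288 and 2138 reads (−1.13), as was the integrin ITGB7 at 112 and 58 (−1.07). ERAP2, which trims peptides for MHC class I, had 1226 and 553 reads (−1.27). HLA-E stood at 0.74. OAS1 (27 and 11 reads, −1.38) and IFITM3 (37 and 19, −1.07) were the 2 of 16 interferon-stimulated genes called lower, and IRF1 lay at −0.87 with 1386 and 829 reads. Over all measured genes 2.16% were called lower.

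None of 27 measured Wnt pathway components and none of 11 measured Wnt targets was called at 2-fold in either direction, with medians of 0.09 and −0.03. CTNNB1, which encodes β-catenin, had 996 reads in control and 1122 in treated cells (0.05, interval −0.08 to 0.17), and LEF1 had 7355 and 8638 (0.11, interval 0.06 to 0.15). TCF7 had 4262 and 3108 reads (−0.58, interval −0.65 to −0.51). AXIN2, the feedback inhibitor of the destruction complex, is overlapped on its own strand over 25.2% of its exonic bases. It had 71 and 57 reads (−0.44), an interval of −0.97 to 0.08 that holds both no change and a loss near 2-fold. Of both lists CREBBP, a coactivator (699 and 1286 reads, 0.75), and the corepressor gene TLE4 (231 and 394, 0.64) were called at 1.5-fold. BAMBI, a pseudoreceptor gene among the targets, had 29 and 18 reads (−0.80), with an interval of −1.75 to 0.08.

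NOTCH genes were mostly below 0, with a median of −0.31 over 17. NOTCH3 had 1179 and 644 reads, a log2 ratio of −1.0 (−1.14 to −0.86) that was just short of the 2-fold limit, and its target DTX1 had 2686 and 1648 (−0.83). NOTCH1 had 1881 and 1498 (−0.45). CR2, a complement receptor, was the member called lower (376 and 188 reads, −1.12) and HES1, a repressor downstream of NOTCH, the member called higher (27 and 128, 2.10).

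Sterol genes had a median near 0 and fatty acid genes one below it. SREBP2, encoded by SREBF2, drives the cholesterol pathway, and SREBP1, encoded by SREBF1, the fatty acid pathway. SREBF2 had 1814 and 1850 reads (−0.10, interval −0.19 to −0.00) and SREBF1 937 and 824 (−0.31). The 20 cholesterol synthesis enzymes had a median of 0.01. MSMO1, a sterol demethylase, was the 1 called, with 333 and 800 reads (1.14, interval 0.95 to 1.33). A count of 1 in 20 is near the 5.58% of all measured genes called higher. HMGCS1, which makes HMG-CoA, had 1811 and 1947 reads (−0.02) and FDPS, which makes farnesyl diphosphate, 2281 and 1329 (−0.90). In fatty acid synthesis the median over 16 genes was −0.48. ACACA, which makes malonyl-CoA, had 1567 and 822 reads (−1.06, interval −1.18 to −0.93) and was called lower with ACSS2 (28 and 13 reads). FASN had 2803 and 1845 (−0.73) and ACLY 4166 and 3006 (−0.60).

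Biosynthesis and proliferation genes were shifted down by small amounts over long lists. In nucleotide synthesis 20 of 21 members lay below 0 with a median of −0.56, and PAICS, an enzyme of purine synthesis, had 5790 and 3273 reads (−0.95). In DNA replication 31 of 36 lay below 0 with a median of −0.38, POLA1 was called lower, and MCM6, part of the replicative helicase, had 3093 and 1837 reads (−0.88). Mitotic genes had a median of −0.18, and 0 of 32 were called. That median is near the −0.13 of all genes with a mean over 100 CPM. RB1, the retinoblastoma suppressor, had 4844 and 2169 reads (−1.28, interval −1.36 to −1.21), ATR, the kinase of stalled forks, 554 and 256 (−1.24), and LDHA, lactate dehydrogenase, 7888 and 4033 (−1.09, interval −1.15 to −1.04). CDKN1B, the inhibitor p27, had 369 and 791 reads (0.97).

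Glycolysis genes had a median of −0.27 over 25. TPI1, triosephosphate isomerase, had 3834 and 2280 reads (−0.88), and SLC2A3, a glucose transporter, was called higher with 100 and 221 (1.01). ALDOA, a glycolytic aldolase, showed how the counting can set a value. The lane files held only 22 and 46 reads of it (0.92, interval 0.18 to 1.74), while the comparison table counted 6622 and 5308 in the same libraries, and con1 and PKF1 gave −0.44. Another gene covers 42.3% of its exonic bases on the same strand. Of 13032 measured genes 366 shared over 25% of their exonic bases in this way.

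Ribosomal protein and ribosome biogenesis genes had medians on opposite sides of 0, with no member of either list called at 2-fold. Of 76 cytosolic ribosomal protein genes 72 lay above 0, but with a median of 0.24 none reached 1.5-fold higher. Their summed level was 61187 CPM in control and 72574 CPM in treated cells. The translation factors EEF1A1 (41613 and 55433 reads, 0.29) and EEF2 (21888 and 31082, 0.38) stood with them, and EIF1, which sets the choice of start codon, was called higher (3020 and 7022 reads, 1.09). Of 36 ribosome biogenesis genes 24 lay below 0, 7 were at least 1.5-fold lower and 2 higher, and the median was −0.30. NCL, the nucleolar protein nucleolin, had 15730 and 8909 reads (−0.95, interval −0.98 to −0.91). In 23 small nucleolar RNA host genes, whose spliced transcripts resemble those of ribosomal proteins at their 5′ end, the median was 0.49. C6orf48 (SNHG32) was called (312 and 863 reads, 1.34). The comparison table counted 1029 and 2754 reads of it in the same libraries, and its ratio in con1 and PKF1 was 1.21.

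Of 30 splicing regulators 3 were called higher and 1 lower, beside 5.58% and 2.16% of all measured genes. The kinases CLK1 (468 and 1286 reads, 1.33, interval 1.18 to 1.49), CLK4 (142 and 357, 1.2) and CLK3 (380 and 849, 1.03), which phosphorylate SR proteins, were called higher, while their relative CLK2 lay at −0.10 with 387 and 395 reads. HNRNPA3 was called lower (6822 and 3373 reads, −1.14, interval −1.20 to −1.08). HNRNPA2B1 lay at −0.73 and HNRNPA1 at 0.01. Over the list the median was −0.24.

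**Figure D4:**
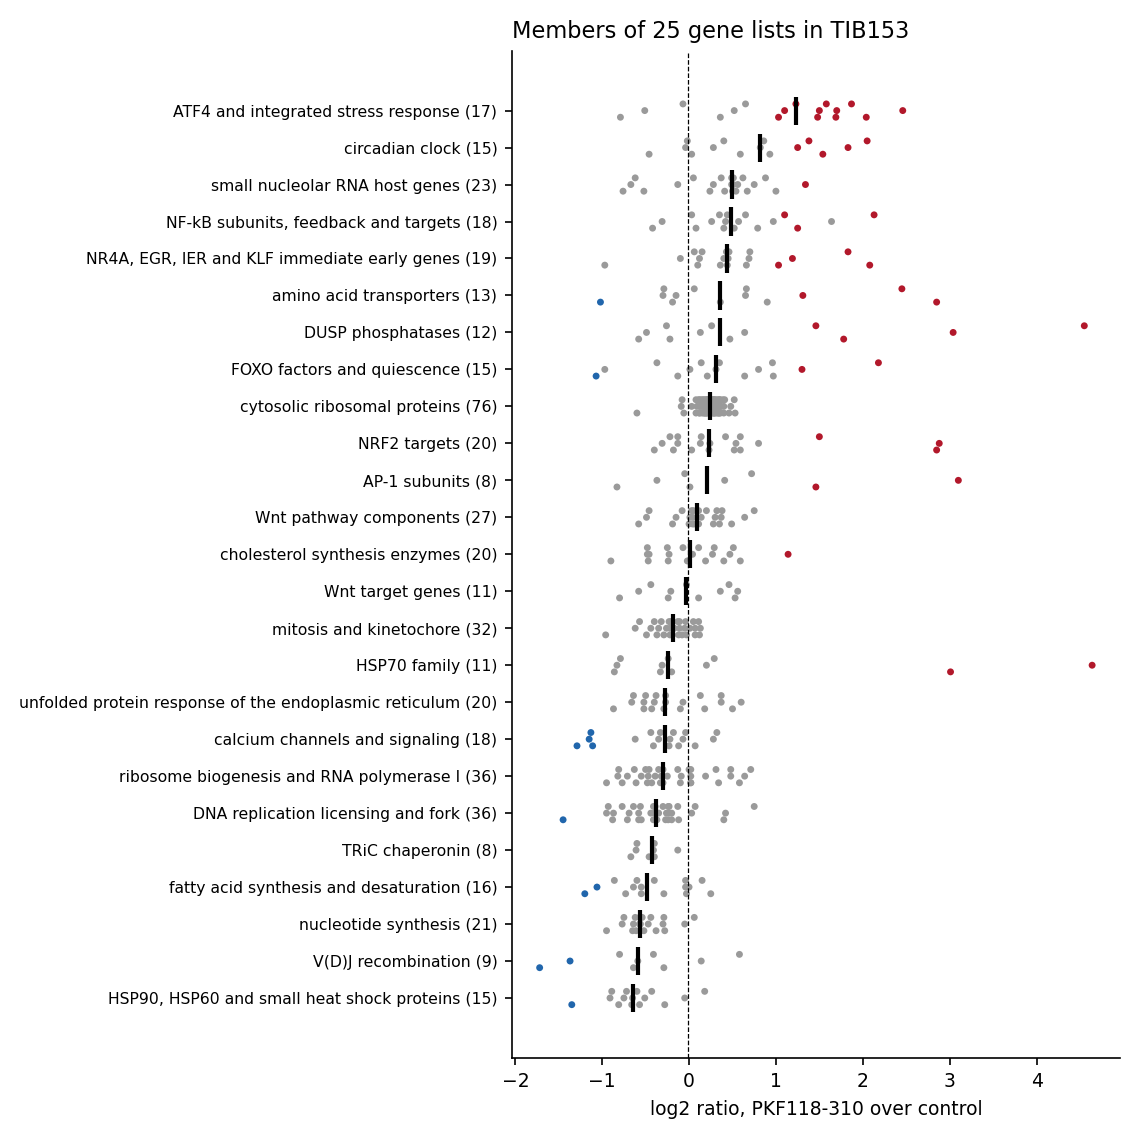
Each point is a measured member of a gene list at its log2 ratio (x), red or blue where called at 2-fold and grey otherwise, with black bars at list medians, numbers of measured members in parentheses and a dashed line at the median of all genes (−0.01). The integrated stress response has the highest median (1.23) and the HSP90 and HSP60 list the lowest (−0.65).

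Mitochondrial transcripts differed along the molecule. The human mitochondrial DNA is transcribed as long precursors that are cut into single RNAs, and its ribosomal RNAs lie next to the heavy strand promoter. MT-RNR2, the large ribosomal RNA, went from 47943 to 105847 reads (1.02, interval 1.0 to 1.03) and made the largest gain of any gene, from 6245 to 12639 CPM. The genes that follow it, MT-ND1 (17396 and 27419 reads, 0.53) and MT-ND2 (15999 and 33089, 0.92), encode subunits of complex I and were above 0 with MT-RNR1 (0.50). The 9 protein genes from MT-CO1 to MT-ND5 lay between −0.84 and 0.23. MT-ND5 had 13825 and 8441 reads (−0.84) and MT-ND6, the 1 measured protein gene on the other strand, 1714 and 989 (−0.92). MT-CYB, the last gene in order, had 22730 and 24074 reads (−0.04), so the ratios did not decline steadily along the molecule. In CUTLL1 the ribosomal RNAs were above 0 (0.83 and 0.99), but MT-ND1 (−0.29) and MT-ND2 (−0.25) were not. All 15 genes summed to 40741 CPM in control and 49132 CPM in treated TIB153 cells. How poly(A) selection catches these RNAs can vary between libraries, and its part in these values was not tested.

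**Figure D5:**
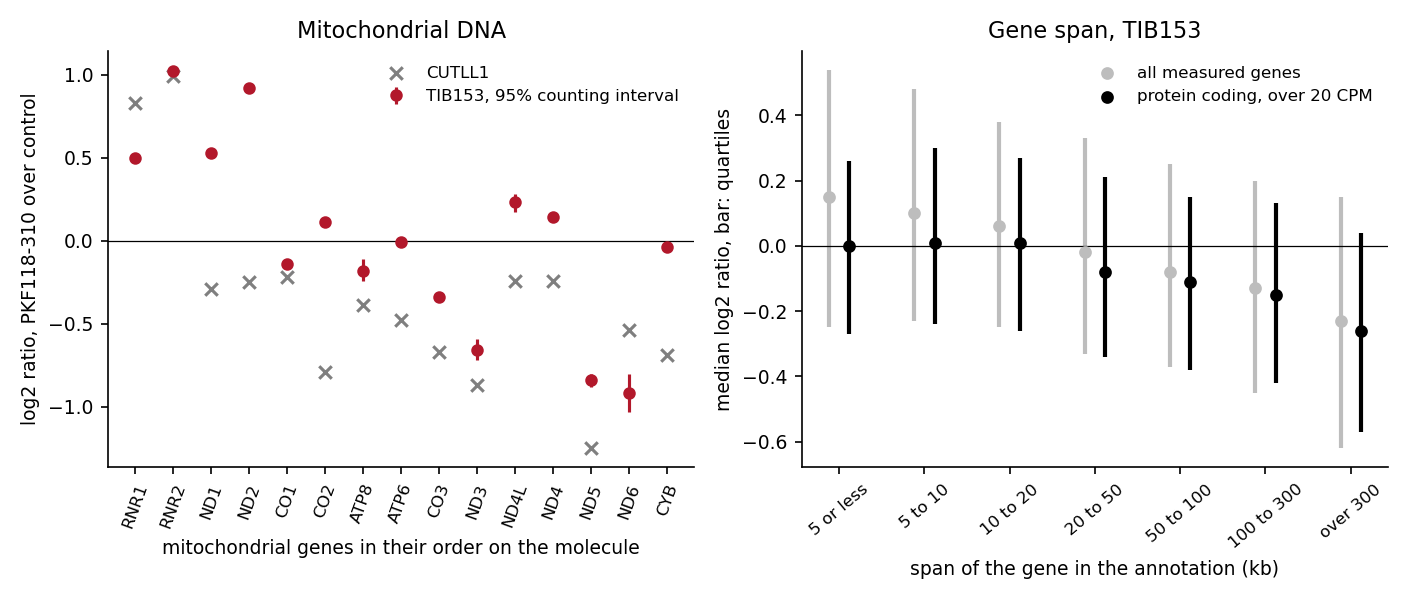
Left, log2 ratio (y) of the 15 genes of mitochondrial DNA in their order along the molecule (x), red for TIB153 with 95% counting intervals and crosses for CUTLL1, with the first 4 genes at 0.50 to 1.02 in TIB153. Right, median log2 ratio with quartile bars by gene span in TIB153, for all measured genes (grey) and protein coding genes over 20 CPM (black), declining to −0.23 and −0.26 above 300 kb.

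Class, level and length of genes went with the change. Protein coding genes had a median of −0.04 (11318 genes), against 0.37 for 445 antisense genes, 0.35 for 360 long intergenic non-coding RNAs and 0.50 for 99 processed transcripts. In these classes 16.9%, 18.1% and 19.2% of genes were called higher. Such genes were weakly expressed, and genes with a mean under 2 CPM had a median of 0.36, while those over 100 CPM had one of −0.13. Among all genes with a mean under 2 CPM 16.0% were called higher. Among those at 2 to 5 CPM it was 17.7%, near the shares of these classes. By span, the median declined from 0.15 for genes of 5 kb or less to −0.23 for 359 genes over 300 kb. Among protein coding genes with a mean over 20 CPM it declined from 0.00 to −0.26, and 14 of the 186 longest were called lower against 1 called higher. In CUTLL1 these medians were −0.11 and −0.05 and showed no such decline. Of the 359 genes over 300 kb in TIB153, 4.46% were called higher and 8.08% lower, against 5.58% and 2.16% of all measured genes. GALNT18, FOCAD, XYLT1 and POLA1, named above among the lowest genes, span over 300 kb. The part of RNA quality or of intronic reads in this was not tested.

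The changes of TIB153 were partly found in CUTLL1, which shares no library with it. Of 701 genes called higher in TIB153 and measured in CUTLL1, 594 (84.7%) were above 0 there, against 50.6% of all genes, and 254 (36.2%) were called higher, against 4.85% of all genes. Of 270 genes called lower, 234 (86.7%) were below 0, against 49.4% of all genes, and 41 (15.2%) were called lower, against 1.86%. The filter on low counts was run over the libraries of both lines together. It left out genes such as MT1E (2 and 32 reads in TIB153) and CXCR3 (39 and 8). It can thereby favour genes that both lines express, and its part in these shares was not tested. A further 13 genes were called in opposite directions. CD1B, which presents lipids on cortical thymocytes, had 62 and 149 reads in TIB153 (1.13) and 1260 and 398 in CUTLL1 (−1.78). FGR, a SRC-family kinase, stood at 1.31 in TIB153 and −2.44 in CUTLL1, and ITGB7 at −1.07 and 1.19. With 1 library in each group, the difference between the lines could not be tested.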

How the data were processed

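Messenger RNA was enriched with poly(T) beads and sequenced from stranded libraries, 1 library of control and 1 of treated TIB153 cells, in 2 lanes each. The authors deposited raw counts for each lane, a whole number of reads for every gene. Per the submitters' processing notes, hg38, HISAT2 and HTSeq were used with DESeq2, and versions and counting settings are not given in the sources used here. The deposited comparison table gives counts (con1, con2, PKF1, PKF2), which were used, beside the authors' fold changes and p-values, which were not. The like table of CUTLL1 was not used.

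Lanes were summed. Filtering (filterByExpr) and TMM scaling over the 4 libraries of the series used edgeR 4.0.16 in R 4.3.3, with DESeq2 1.42.0 for the alternative size factors. Ratios had 0.5 reads added, and intervals were computed with scipy 1.17.1. The columns con1 and PKF1 were scaled to the median of the lane libraries over listed genes. Gene positions came from GENCODE v29, which matched 99.6% of measured genes. The code was tested on simulated data.

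The comparison, gene lists and named genes were chosen with earlier results of these data known. Genes were named by rule: the 15 highest and lowest called genes reaching 20 CPM, the 10 largest gains and losses in CPM, per list up to 5 members of the largest absolute ratio that reached 5 CPM and the members of any direction with 5 or fewer called, and a fixed set, passing over clone-named genes. Further list members, DUSP8 and SKIL promoters, the genes of opposite direction and the 100 CPM limit were chosen after values were seen. The alternatives tried were other scalings, filters, single lanes, pseudocounts and a 1.5-fold limit. Some genes of the lists are not reported here.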

Additional observations from a re-analysis of the deposited data

How the results depend on the processing

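Under other scalings the genes called higher numbered 839 with total counts only, 741 with DESeq2 size factors and 748 with TMM on the TIB153 libraries alone, and those called lower 230, 276 and 273. Keeping every gene with at least 1 read gave 1120 higher, and keeping only genes of at least 5 CPM gave 429. The 1.5-fold limit gave 1513 higher and 1303 lower. Lane 1 alone gave 623 higher and 290 lower, of which 474 and 187 were called with both lanes, and lane 2 alone 654 and 301, of which 488 and 200 were. Without genes of shared exons or differing counting, an alternative added after the data were seen, 682 were higher and 270 lower. Of 347 named genes 4 changed sign under some alternative. ALDOA, higher by 1.5-fold in the lanes (0.92), turned to −0.44 in con1 and PKF1, where the counting of the same library differed, and JUNB, HMGCS1 and CD3E lay within 0.05 of 0. Of 59 list medians 14 changed sign, all of them within 0.21 of 0, among them AP-1 (−0.02 in lane 2) and Wnt targets. Medians in con1 and PKF1 cover listed members only, so their sign can change with the genes covered. For Wnt targets that median was 0.49 over 5 listed genes, beside −0.03 in the lanes over 11 measured genes. All 5 listed genes had the same sign in both pairs. The list medians that moved were −0.32 for HSP70 and 0.50 for amino acid transporters without the filter, −0.39 for the CD3 list at 5 CPM or more, −0.18 for MHC class I in lane 1, and −0.37 for TRiC, 0.30 for ribosomal proteins and 0.06 for mitochondrial DNA with total counts. Mitochondrial DNA genes gave 0.04 in lane 2. Over listed members in con1 and PKF1, also added after the data were seen, medians were −0.20 for the unfolded protein response, 0.46 for JAK-STAT, 0.26 for mitochondrial DNA, 1.23 for clock genes and −0.40 for splicing regulators. The cause of these shifts was not tested. No paired analysis was possible because the lane files held 1 library a group. For listed genes, which the study had selected by its own test on the same columns, the 2 column pairs were set side by side with no test, and the con1 and PKF1 values are those without the lane pair. In each library 3 reads were worth 0.391 and 0.358 CPM, and at few reads only large differences could be called.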
